A study of Homo sapiens with 8 samples.

Results

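Chemokine ligands, the secreted or membrane-anchored proteins that direct the migration of leukocytes, were represented by 42 features of the array, which named 38 gene symbols. They were taken as every feature whose symbol begins with CCL, CXCL, CX3CL or XCL followed by a number, with the eotaxins CCL11, CCL24 and CCL26 set aside, out of 29141 tested features and 20219 distinct symbols in the series. The cells were MIV-Luc, the luciferase-expressing form of MCF10CA1a, a metastatic line of the human MCF10A breast cancer progression series. All of them carried a pLKO lentiviral hairpin, either a scrambled control (shSCR) or a hairpin against the IL-13 decoy receptor IL13Rα2 (shIL13RA2), and each line was either mock-treated or exposed to IL-13 at 20 ng/ml over 16 h. The 4 groups were therefore mock-treated shSCR, IL-13-treated shSCR, mock-treated shIL13RA2 and IL-13-treated shIL13RA2, each with 2 arrays, which the study's methods call biological replicates (array A is the one in the earlier column, array B the later). Each construct was profiled in a single stably transduced, drug-selected line, so the loss of IL13Rα2 cannot be told apart from any other difference between those lines. The deposited values are log2 expression after robust multi-array averaging (RMA), so that a difference of 1 is a 2-fold change, and the levels of different genes are not compared because each feature has its own probes.

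Chemokines are grouped by the spacing of their first cysteines into CXC, CC, CX3C and C families and act through seven-transmembrane receptors on leukocytes. Epithelial cells make many of them: the CXC ligands with a Glu-Leu-Arg motif, such as CXCL1 and CXCL2, recruit neutrophils through CXCR2, CCL20 recruits dendritic cells and lymphocytes through CCR6, and CXCL17 is made chiefly by mucosal epithelium. Transcription of the neutrophil-attracting group is known to depend on NF-κB, which cytokines such as IL-1 and TNF activate, whereas IL-13 signals through IL4Rα and IL13Rα1 to STAT6, and IL13Rα2 binds IL-13 without signaling through that route.

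The sequences before the start sites are shown for the ligands on which the results below turn, from RefSeq promoter windows on GRCh38.p14. For CXCL17, the 250 bases upstream of the start (chr19:42442947-42443196, minus strand) are given with capitals marking a match to TTC and GAA held apart by 4 bases, the spacing known for STAT6. For CCL20, CXCL1, CXCL2 and CXCL3 a stretch of 120 bases before the start is given, with capitals marking matches to the κB consensus, the type of element that NF-κB binds. These stretches lie at chr2:227813722-227813841 (CCL20, plus strand), chr4:73869273-73869392 (CXCL1, plus strand), chr4:74099196-74099315 (CXCL2, minus strand) and chr4:74038690-74038809 (CXCL3, minus strand).
CXCL17: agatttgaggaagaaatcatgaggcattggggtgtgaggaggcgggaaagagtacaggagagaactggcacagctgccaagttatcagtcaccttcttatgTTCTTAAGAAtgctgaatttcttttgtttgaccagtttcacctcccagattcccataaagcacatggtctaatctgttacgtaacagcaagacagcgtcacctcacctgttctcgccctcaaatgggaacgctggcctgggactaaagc
CCL20: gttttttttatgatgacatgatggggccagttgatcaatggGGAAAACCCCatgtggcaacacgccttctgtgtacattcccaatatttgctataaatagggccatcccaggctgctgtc
CXCL1: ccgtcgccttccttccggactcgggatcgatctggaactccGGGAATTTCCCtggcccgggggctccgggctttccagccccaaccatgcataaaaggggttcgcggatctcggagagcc
CXCL2: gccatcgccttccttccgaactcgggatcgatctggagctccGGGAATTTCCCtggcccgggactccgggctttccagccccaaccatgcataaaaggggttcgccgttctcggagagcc
CXCL3: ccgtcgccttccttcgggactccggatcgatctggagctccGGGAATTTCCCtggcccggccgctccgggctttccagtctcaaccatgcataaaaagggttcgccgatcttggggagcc

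The CXCL1 and CXCL2 stretches were 93.4% identical over 121 aligned bases, CXCL1 and CXCL3 were 90.8% identical and CXCL2 and CXCL3 were 88.4% identical. Both strands of the 250 bases before each start were searched for every motif. The element GGGAATTTCC, read from the CXCL1 window and itself a match to the κB consensus, was found before CXCL1, CXCL2, CXCL3, CXCL5 and CXCL6, in 5 of 30 windows of chemokine ligands (16.7%) and in 0.142% of 35116 promoters of all genes. The κB consensus as a whole matched 10 of the 30 windows (33.3%) and 9.96% of all promoters, and overlapping matches on opposite strands were counted as 1 window. TTC and GAA with 4 bases between matched the CXCL17 window alone among the ligands, as TTCTTAAGAA from 149 to 140 bases before the start, and 5.38% of all promoters. The 30 windows belong to 26 of the 38 symbols. These matches describe letters in the windows, and no binding was measured.

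IL13RA2, the gene targeted by the hairpin, had log2 values of 8.07 and 8.09 on the mock-treated shSCR arrays, 9.36 and 9.33 with IL-13, 6.52 and 6.34 on the mock-treated shIL13RA2 arrays and 8.23 and 8.15 on those with IL-13, so its level was lower with the hairpin under either treatment and higher with IL-13 in either line. In IL-13-treated shIL13RA2 cells it was not lower than in mock-treated shSCR cells (difference 0.11, limma adjusted p = 0.815). Of the cell type markers, the epithelial genes CDH1 (E-cadherin) and KRT5 (a basal keratin) had mean log2 values of 9.51 and 9.73 over the 8 arrays, the leukocyte marker PTPRC 2.47 and the fibroblast marker DCN 2.69. Without a usable background these values do not settle which of the markers were expressed. No leukocyte or fibroblast marker was called in any comparison, and 0 to 1 of the 6 leukocyte markers and of the 5 fibroblast markers had an unadjusted p under 0.05. These are at most 16.7% and 20%, against 4.47% to 11.3% of all features over the comparisons. Among the 4 endothelial markers, VWF and CDH5 had mean log2 values of 3.85 and 4.55, and PECAM1 had 8.25, with a knockdown mean effect of 0.52 (limma adjusted p = 0.0615) and an IL-13 mean effect of -0.52 (adjusted p = 0.0938). Its part in the results below was not tested. Replicate arrays differed by a median SD of 0.129 over the ligands, against 0.102 over all tested features (log2 scale).

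Of the ligands, 2 differed past the threshold of an adjusted p under 0.05 and a fold change above 2, and both did so where the knockdown was combined with IL-13. CXCL17 was lower and CXCL1 was higher in IL-13-treated shIL13RA2 cells than in mock-treated shSCR cells, 2 of 42 features, where 0.154% of all 29141 features were called (0.048% lower and 0.106% higher). Averaged over both treatments, the knockdown was associated with a lower CXCL17, the only ligand called of 42, against 0.0755% of all features (0.0206% lower). No ligand was called by limma for IL-13 in shSCR cells (background 0.0583%), for knockdown alone (0.0652%), IL-13 in shIL13RA2 cells (0.0618%), the knockdown under IL-13 (0.0515%) or the IL-13 mean effect over both lines (0.0927%). In the same order, 3, 6, 3, 5 and 6 of the 42 features had an unadjusted p under 0.05. That is 7.14%, 14.3%, 7.14%, 11.9% and 14.3% of the ligands, against 6.79%, 9.51%, 6.93%, 7.07% and 8.73% of all features. By the methods' analysis of variance on the 4 arrays of a comparison, 0 ligands passed in any of these single comparisons after adjustment, and without adjustment CXCL17 passed for the knockdown without IL-13. For the interaction, which asks whether the IL-13 response differed between the lines, neither a ligand nor any other feature passed (0%), and 0 ligands had an unadjusted p under 0.05, against 4.47% of all features.

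The ligands' differences lay in both directions. In the combined comparison 24 of the 42 features were higher and 18 lower, with a median log2 difference of 0.049 against 0.0062 over all tested features, and 8 of 42 (19%) had an unadjusted p under 0.05 against 9.56% of all features. For the knockdown mean effect, 27 were higher and 15 lower, the median was 0.039 against -0.0060, and 7 of 42 (16.7%) had an unadjusted p under 0.05 against 11.3%. Groups were free of overlap between arrays for 18 ligands (42.9%) in the combined comparison, where this held for 40.3% of all features, and for 3 (7.14%) in the knockdown mean effect, against 7.13%. For IL-13 in the shSCR line, knockdown without IL-13, IL-13 in shIL13RA2 cells and the knockdown under IL-13, the shares free of overlap were 33.3%, 35.7%, 50% and 33.3% of the ligands against 36.7%, 41.2%, 37.4% and 36.4% of all features. The ranges over the 8 arrays ran from 0.227 for CCL5 to 1.90 for CXCL17 on the log2 scale.

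**Figure D1:**
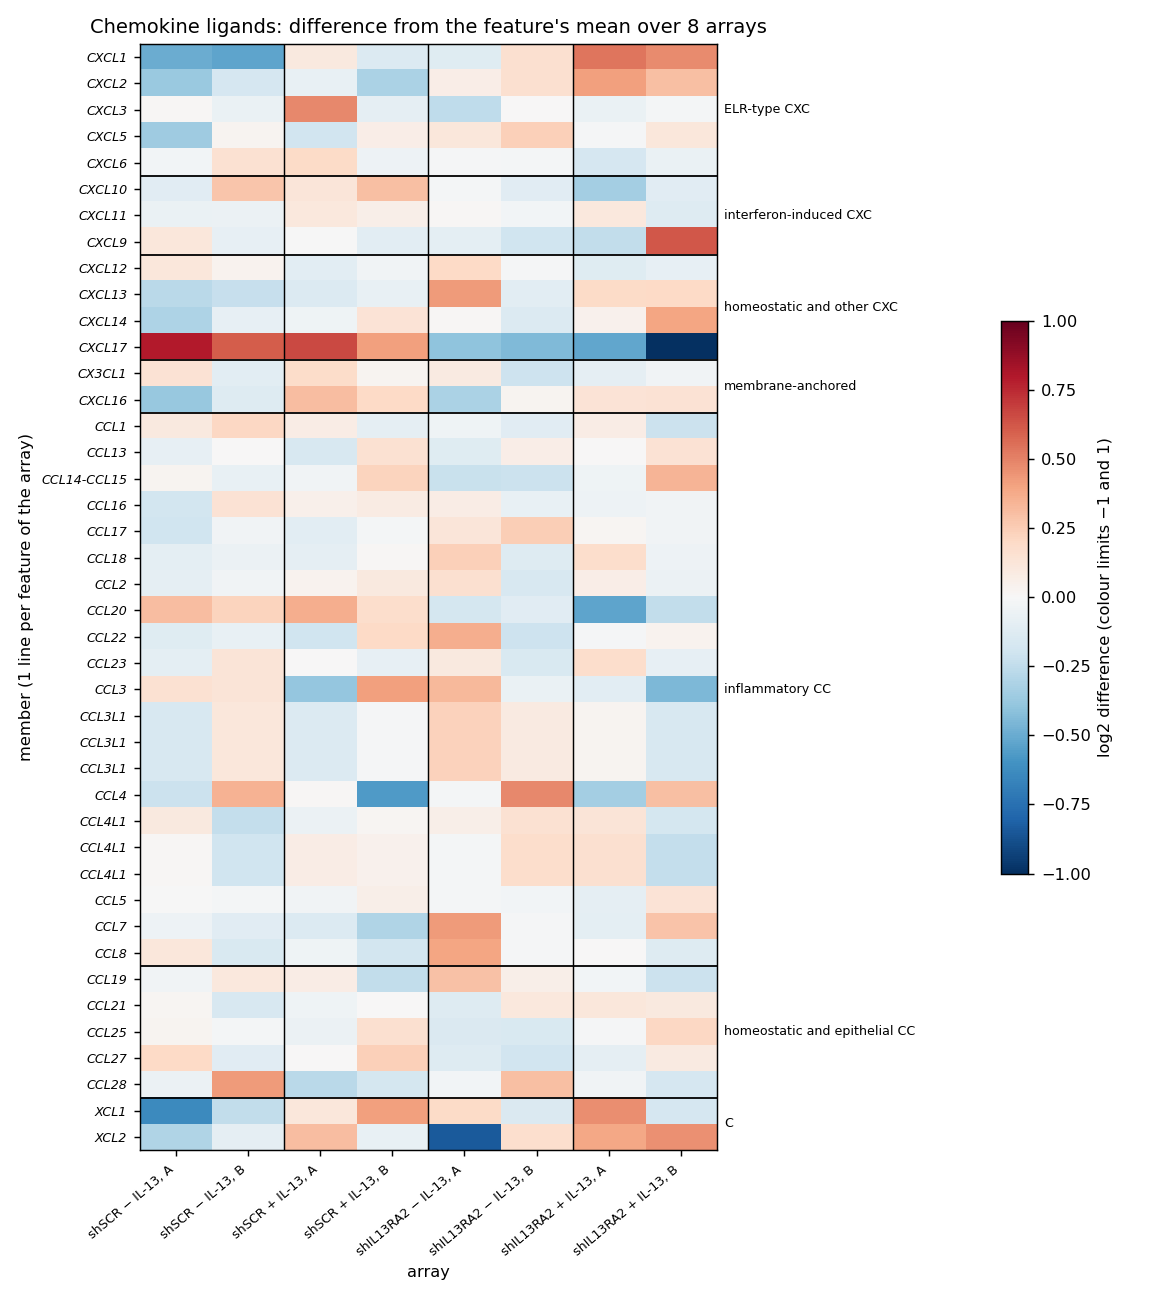
Colours give the log2 difference of each of the 42 features (rows, grouped by the ligands' roles) from its own mean over the 8 arrays (columns, arrays A and B of each group), with colour limits at -1 and 1. CXCL17 is above its mean on all 4 shSCR arrays and below it on all 4 shIL13RA2 arrays, CXCL1 is lowest on the mock-treated shSCR arrays and highest on the IL-13-treated shIL13RA2 arrays, and most other rows stay pale.

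CXCL17, a ligand of mucosal epithelium that attracts myeloid cells, had the largest knockdown differences and the largest combined difference of the ligands. Its log2 values were 8.23 and 8.04 in mock-treated shSCR cells, 8.09 and 7.84 in IL-13-treated shSCR cells, 7.03 and 6.99 in mock-treated shIL13RA2 cells and 6.91 and 6.33 in IL-13-treated shIL13RA2 cells. Every shIL13RA2 array lay below every shSCR array, whereas the arrays with and without IL-13 overlapped in shSCR cells. In the combined comparison CXCL17 fell by 1.51 on the log2 scale (SE 0.19, 95% confidence interval -1.96 to -1.06, limma adjusted p = 0.0331), a 2.85-fold lower level. The knockdown mean effect was -1.23 (SE 0.14, adjusted p = 0.0166), a 2.35-fold lower level. Taken singly, the knockdown differences were -1.12 without IL-13 (95% interval -1.57 to -0.67, adjusted p = 0.159) and -1.35 with IL-13 (-1.79 to -0.90, adjusted p = 0.123). The IL-13 differences were -0.17 in shSCR cells (-0.61 to 0.28, adjusted p = 0.914) and -0.39 in shIL13RA2 cells (-0.84 to 0.06, adjusted p = 0.762), and their difference, the interaction, was -0.22 (-0.86 to 0.41, adjusted p = 0.994). The IL-13-treated shIL13RA2 arrays had an SD of 0.41 for this gene, against 0.03 to 0.18 in the other groups. CXCL17 is among the genes that the study picked on these same arrays, so its call is not independent evidence. The study lists it as lower, by 2.18-fold, for the knockdown without IL-13, where limma did not call it here. The study also measured CXCL17 by real-time PCR, which is separate from these arrays. In these cultures a lower signal of a bulk RNA sample cannot tell fewer expressing cells from less RNA per cell.

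The CXCL17 and CXCL1 calls of the combined comparison were lost when any one of the 8 arrays was left out, including the arrays of the other groups, which enter only the shared estimate of the spread. Without 1 array, the CXCL17 difference ranged from -1.81 to -1.22 with adjusted p from 0.0514 to 0.202, and the CXCL1 difference from 0.99 to 1.05 with adjusted p from 0.0605 to 0.22. The CXCL17 knockdown mean effect ranged from -1.38 to -1.09, and it kept its call only without array A or without array B of the IL-13-treated shIL13RA2 cells (adjusted p from 0.0195 to 0.101 over the 8 fits). Fewer arrays also leave fewer degrees of freedom for all features.

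**Figure D2:**
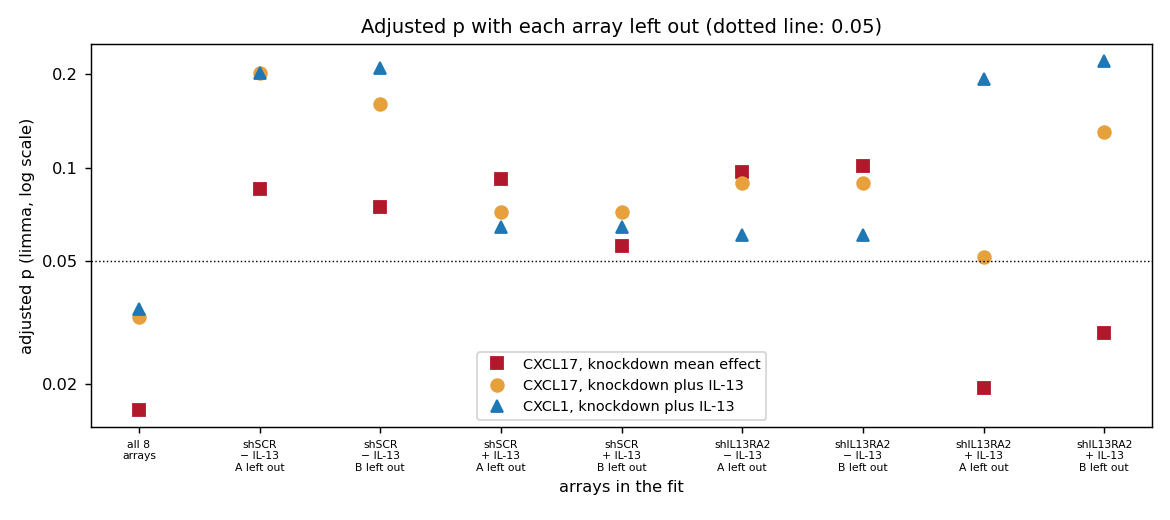
Adjusted p (limma, log scale) of the CXCL17 knockdown mean effect (squares), the CXCL17 combined difference (circles) and the CXCL1 combined difference (triangles) with all 8 arrays and with each array left out in turn, and a dotted line at 0.05. All 3 lie below the line with 8 arrays, and only the CXCL17 knockdown mean effect lies below it in any smaller fit, in 2 of 8.

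Among the neutrophil-attracting CXC ligands with a Glu-Leu-Arg motif, 1 of 5 was called in the combined comparison, against 0.154% of all features. CXCL1 had log2 values of 8.13 and 8.10 in mock-treated shSCR cells, 8.73 and 8.49 with IL-13, 8.50 and 8.79 in mock-treated shIL13RA2 cells and 9.16 and 9.10 with both. The arrays with neither treatment nor knockdown were the lowest, those with both were the highest, and those with only one of them lay between. The combined difference was 1.02 (SE 0.13, 95% confidence interval 0.70 to 1.33, limma adjusted p = 0.0349), a 2.02-fold higher level that lay just past the 2-fold threshold. IL-13 alone gave 0.49 in shSCR cells (adjusted p = 0.528) and 0.49 in shIL13RA2 cells (adjusted p = 0.509). The knockdown gave 0.53 without IL-13 (adjusted p = 0.320) and 0.52 with it (adjusted p = 0.426), so the single differences of CXCL1 did not pass, and the interaction was -0.0075 with a 95% interval from -0.45 to 0.43 (adjusted p = 0.999). The mean effects were 0.49 for IL-13 (adjusted p = 0.160) and 0.53 for the knockdown (adjusted p = 0.0852).

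CXCL2, a close relative of CXCL1 with the same receptor, had log2 values of 4.17 and 4.37 in mock-treated shSCR cells, 4.47 and 4.22 with IL-13, 4.60 and 4.70 in mock-treated shIL13RA2 cells and 4.95 and 4.84 with both. All 4 shIL13RA2 arrays lay above all 4 shSCR arrays, and IL-13 and mock arrays overlapped in shSCR cells. The shSCR values lay near the medians of the negative control features on those arrays (4.15, 4.12, 4.21 and 4.30). The value on IL-13 array B was below its median. Its knockdown mean effect of 0.47 (SE 0.093, 95% interval 0.25 to 0.68, adjusted p = 0.115) and its combined difference of 0.62 (0.32 to 0.93, adjusted p = 0.164) did not pass. CXCL3, whose promoter stretch resembles both, had values from 4.58 to 5.31 with no such order, a combined difference of -0.016 and a knockdown mean effect of -0.17 (adjusted p = 0.990 and 0.699). CXCL5 and CXCL6 had combined differences of 0.21 and -0.18 (adjusted p = 0.742 and 0.714). CXCL6 lay below the negative control median on every array. The element GGGAATTTCC was thus present before CXCL1, which was called, and before 4 ligands that were not. CXCL1, CXCL2 and CXCL3 have similar transcripts, and how far their probes share signal was not tested.

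**Figure D3:**
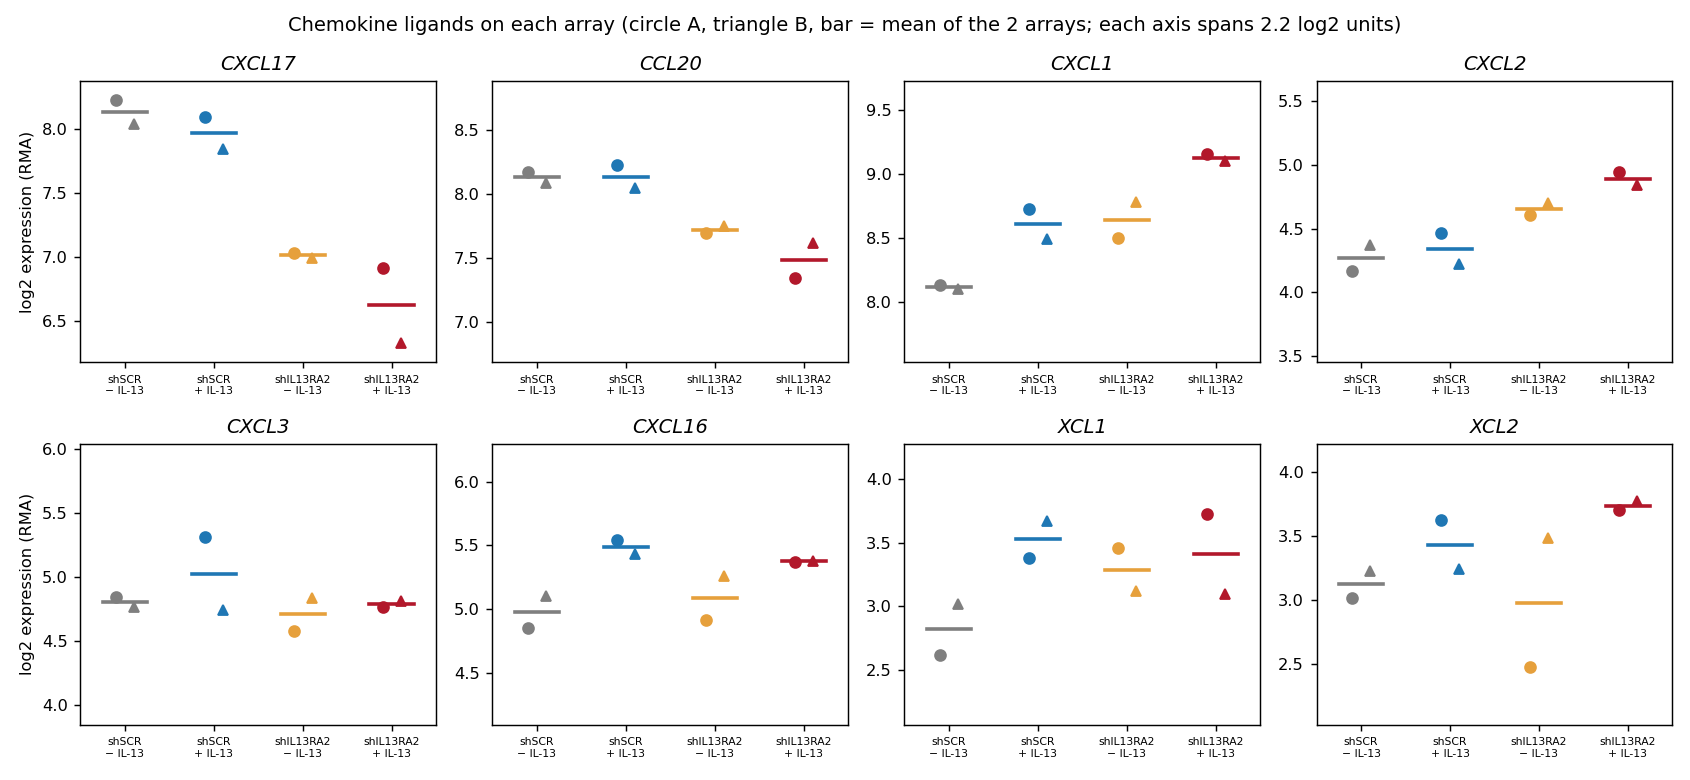
Log2 expression (RMA) of 8 ligands on each array, with circles for array A, triangles for array B and bars for the mean of the 2 arrays of a group. Every panel spans 2.2 log2 units, with its own centre. CXCL17 and CCL20 are lower and CXCL2 is higher on all 4 shIL13RA2 arrays, CXCL1 is lowest with neither and highest with both, and CXCL16 is higher on all 4 IL-13 arrays.

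CXCL8 (listed under its older symbol IL8), PPBP, PF4 and PF4V1 belong to the same chromosomal cluster and fall outside the symbol rule. None was called, and the highest combined difference of these 4 was that of CXCL8, at 0.41 (adjusted p = 0.377), with log2 values of 7.69 and 8.02 in mock-treated shSCR cells and 8.22 and 8.31 in IL-13-treated shIL13RA2 cells. The receptors CXCR1 and CXCR2 had combined differences of -0.03 and 0.07 (adjusted p = 0.966 and 0.927).

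Among the inflammatory CC ligands, counted over 21 features, the difference that came nearest to the threshold was that of CCL20, the ligand of CCR6. Its log2 values were 8.18 and 8.09 in mock-treated shSCR cells, 8.23 and 8.05 with IL-13, 7.69 and 7.75 in mock-treated shIL13RA2 cells and 7.34 and 7.62 with both. The shIL13RA2 arrays were all below the shSCR arrays, and within shSCR cells the arrays with and without IL-13 overlapped. The knockdown mean effect was -0.53 (SE 0.092, 95% interval -0.75 to -0.32, adjusted p = 0.0709) and the combined difference -0.65 (-0.95 to -0.35, adjusted p = 0.145), neither of which passed, and the IL-13 difference in shSCR cells was 0.0044 (-0.30 to 0.31, adjusted p = 0.998). The 3 features of CCR6 had combined differences from 0.03 to 0.20, with adjusted p of at least 0.811. CXCL17, CXCL2 and CCL20 were the 3 ligands whose arrays did not overlap between the lines over both treatments, and of those only CXCL17 passed.

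**Figure D4:**
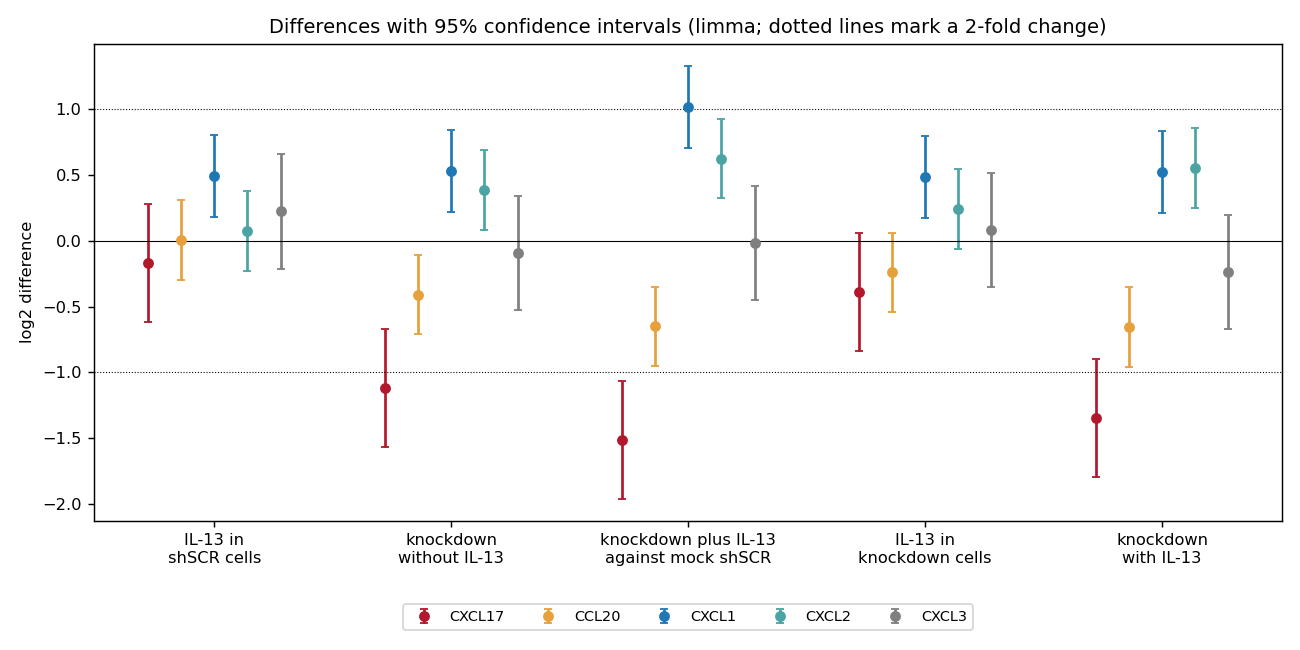
Log2 differences with 95% confidence intervals (limma) of CXCL17, CCL20, CXCL1, CXCL2 and CXCL3 in 5 comparisons, with dotted lines at a 2-fold change. The intervals of CXCL17 lie below 0 in the 3 comparisons that contain the knockdown, those of CXCL1 lie above 0 in all 5, and the CXCL3 intervals include 0 throughout. The first 3 comparisons share the mock-treated shSCR arrays.

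None of the other inflammatory CC ligands was called in any comparison, and 0 to 2 of the 21 features, CCL20 included, had an unadjusted p under 0.05. That is at most 9.52%, against 4.47% to 11.3% of all features over the comparisons. CCL7, which attracts monocytes, had log2 values of 3.49 and 3.43, 3.40 and 3.24, 3.97 and 3.53, and 3.45 and 3.83 in the groups in the order given for CCL20, and a knockdown mean effect of 0.30 (adjusted p = 0.433). CCL4, which attracts monocytes and T cells, ranged from 2.76 to 3.81 over the arrays, with SDs of 0.36 to 0.46 within groups, and its mean effects of -0.30 for IL-13 and 0.21 for the knockdown were smaller than that spread (adjusted p = 0.744 and 0.769). All values of CCL7 and CCL4 lay below the median of the negative control features, which was 4.12 to 4.38 over the arrays. CCL2, the main monocyte attractant, had values of 4.68 to 5.00 and differences from -0.06 to 0.13 apart from the interaction, none of which passed. CCL17 and CCL22, ligands of CCR4 that IL-13 and IL-4 are known to induce in other cell types, had IL-13 differences in shSCR cells of 0.05 and 0.10 (adjusted p = 0.960 and 0.956) and in shIL13RA2 cells of -0.19 and -0.07 (0.794 and 0.970). CCL5, which attracts T cells and monocytes, had the smallest range over the arrays, and each of its values lay below the negative control median of its own array. The 3 features for CCL3L1 held identical values on every array, as did 2 of the 3 for CCL4L1, so they are not separate measurements, and these genes have near-identical copies. The symbol CCL14-CCL15 names a readthrough transcript that overlaps both genes.

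CXCL16, a membrane-anchored ligand of CXCR6, had log2 values of 4.85 and 5.11 in mock-treated shSCR cells, 5.54 and 5.43 with IL-13, 4.92 and 5.26 in mock-treated shIL13RA2 cells and 5.37 and 5.38 with both. All 4 IL-13 arrays lay above all 4 mock arrays, and the 2 treatments were free of overlap for 2 ligands (4.76% of 42), CXCL16 and, in the other direction, CXCL12, against 4.78% of all features. The IL-13 mean effect was 0.40 (SE 0.10, 95% interval 0.16 to 0.64, adjusted p = 0.318), which did not pass, and the knockdown mean effect was 0.00057 (-0.24 to 0.24). CXCR6 itself had an IL-13 mean effect of 0.45 (adjusted p = 0.525). The other membrane-anchored ligand, CX3CL1, had values of 5.37 to 5.76 and differences from -0.17 to 0.09.

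The C ligands XCL1 and XCL2, which attract dendritic cells through XCR1 and have near-identical sequences, varied between arrays of a group by SDs of up to 0.71. All their values lay below the median of the negative control features, so whether they hold an expression signal is not settled. XCL1 had log2 values of 2.62 and 3.02 in mock-treated shSCR cells, 3.38 and 3.67 with IL-13, 3.45 and 3.12 in mock-treated shIL13RA2 cells and 3.73 and 3.10 with both. XCL2 had 3.02 and 3.23, 3.62 and 3.24, 2.48 and 3.48, and 3.70 and 3.77 in the same order. Array A of the mock-treated shIL13RA2 cells was the lowest for XCL2, and the difference for IL-13 in shIL13RA2 cells, 0.76 (95% interval 0.08 to 1.44, adjusted p = 0.690), ranged from 0.25 to 1.26 when 1 array was left out. The XCL1 difference for IL-13 in shSCR cells was 0.71 (0.15 to 1.26, adjusted p = 0.664). Neither passed, and XCR1 had an IL-13 mean effect of 0.10 (adjusted p = 0.763).

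**Figure D5:**
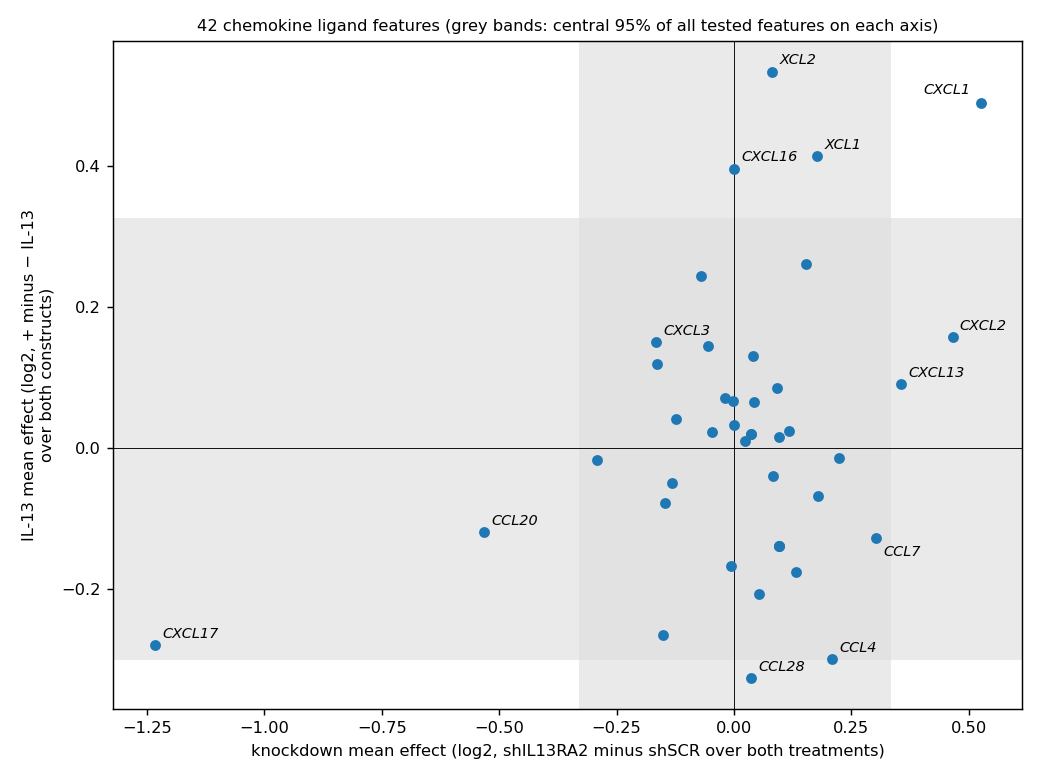
Each point is 1 of the 42 features, with its knockdown mean effect on the horizontal axis and its IL-13 mean effect on the vertical axis (both log2), and grey bands for the central 95% of all tested features (-0.33 to 0.33 for the knockdown and -0.30 to 0.33 for IL-13). CXCL17 and CCL20 lie left of the vertical band, CXCL1, CXCL2 and CXCL13 lie right of it, and CXCL1, XCL1, XCL2 and CXCL16 lie above the horizontal band, with CCL28 below it.

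The interferon-induced ligands CXCL9, CXCL10 and CXCL11, which attract activated T cells through CXCR3, had combined differences of 0.17, -0.31 and 0.053 (adjusted p = 0.882, 0.591 and 0.930). CXCL9 had values of 2.83 to 3.19 on 7 arrays and 3.70 on array B of the IL-13-treated shIL13RA2 cells. All values of CXCL9, CXCL10, CXCL11, CXCL12 and CXCL13 lay below the median of the negative control features. CXCL13, the B cell attractant, had log2 values of 2.61 and 2.64 in mock-treated shSCR cells, 2.74 and 2.80 with IL-13, 3.30 and 2.77 in mock-treated shIL13RA2 cells and 3.07 on both arrays with both, and its knockdown mean effect of 0.36 (95% interval 0.08 to 0.63, adjusted p = 0.332) did not pass. CXCL12, the ligand of CXCR4, and CXCL14, an epithelial ligand, had combined differences of -0.17 and 0.42 (adjusted p = 0.701 and 0.448), and CXCL12 an IL-13 mean effect of -0.17 (adjusted p = 0.622). Each CXCL14 value also lay below the negative control median of its own array.

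None of the 5 homeostatic and epithelial CC ligands was called, and 0 to 1 had an unadjusted p under 0.05. The 1 was found for the IL-13 mean effect (20%, against 8.73% of all features). CCL28, which mucosal and mammary epithelium makes to attract antibody-secreting cells, had log2 values of 4.75 and 5.23 in mock-treated shSCR cells, 4.53 and 4.62 with IL-13, 4.78 and 5.10 in mock-treated shIL13RA2 cells and 4.76 and 4.63 with both. The IL-13 arrays were lower within each line, but over both lines the treatments overlapped, and the IL-13 mean effect was -0.33 (95% interval -0.62 to -0.03, adjusted p = 0.530). CCL19, CCL21, CCL25 and CCL27 had combined differences from -0.15 to 0.18, with adjusted p from 0.713 to 0.957.

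The receptors and regulators of the chemokine system showed no called difference. Of the 23 features of 19 chemokine receptors, 0 were called in any of the 8 comparisons, and 0 to 2 had an unadjusted p under 0.05 in each. The 2 were found for the interaction (8.7%, against 4.47% of all features). GPR35, a proposed receptor of CXCL17, had a knockdown mean effect of -0.06 (adjusted p = 0.911). Of the 7 features of atypical receptors, which scavenge chemokines, 0 were likewise called, and 0 to 3 had an unadjusted p under 0.05. The 3 were found for IL-13 in shIL13RA2 cells (42.9%, against 6.93% of all features). They came from 2 genes, with both features of CCRL2 higher and CCBP2 (ACKR2) lower. All values of CCRL2 lay below the median of the negative control features. The 2 features under the symbol CCRL1 (ACKR4) disagreed. One had a combined difference of 0.82 (adjusted p = 0.467) with means of 5.37 ± 0.81 (SD, n = 2) in mock-treated shSCR cells and 6.19 ± 0.03 in IL-13-treated shIL13RA2 cells, and the other had a combined difference of 0.025 (adjusted p = 0.984). Of the 14 transcription regulators, among them the NF-κB and STAT genes, 0 were called, and 0 to 4 had an unadjusted p under 0.05. Those 4 came from the knockdown mean effect, 2 higher and 2 lower (28.6%, against 11.3% of all features). Its smallest limma adjusted p was 0.116. Arrays did not overlap between the lines for 4 regulators (28.6%, against 7.13%). These 4 were REL, NFKB1 and BIRC3, which were higher with the knockdown, and STAT6, which was lower. Of all 14 regulators, 5 were higher and 9 lower in the knockdown mean effect, with a median of -0.099. RELA and RELB were among the lower. Their means were 6.88 and 5.42 in mock-treated shSCR cells, and 6.69 and 5.16 in mock-treated shIL13RA2 cells. With IL-13 they were 6.87 and 5.37, and 6.87 and 5.36. REL had means of 7.26 and 7.42 in shSCR cells without and with IL-13, and 7.64 and 7.84 in shIL13RA2 cells. Any part of these genes in the ligand values was not tested. IRF1, an interferon-responsive factor, had an IL-13 difference of 0.79 in shSCR cells (adjusted p = 0.567).

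Of the 11 features of cytokines known to induce chemokines, 1 was called, in comparisons where 0.0515% to 0.154% of all features were called. IL1A, which encodes interleukin-1α, had log2 values of 6.73 to 7.03 on the 4 shSCR arrays, 7.65 and 7.69 in mock-treated shIL13RA2 cells and 8.29 and 8.40 with both. All shIL13RA2 arrays lay above all shSCR arrays, where 7.13% of all features were free of overlap between the lines. The combined difference was 1.48 (95% interval 1.19 to 1.77, adjusted p = 0.0067), the knockdown mean effect 1.09 (adjusted p = 0.00432) and the knockdown difference among IL-13-treated cells 1.36 (adjusted p = 0.0241). Leaving out 1 array kept the IL1A mean effect past the threshold in 8 of 8 fits, the combined difference in 5 of 8, and the difference among IL-13-treated cells in 2 of 8, the fits that lacked a mock-treated shSCR array. The combined call was lost without the mock-treated shSCR array A or either array of the IL-13-treated shIL13RA2 cells. TNF, whose 3 features held the same values, and IL1B had combined differences of -0.03 and -0.49 (adjusted p = 0.988 and 0.473), and the 2 features of IL6 had IL-13 differences of 0.62 and 0.18 in shIL13RA2 cells (adjusted p = 0.443 and 0.852). TP63, a transcription factor of basal epithelium, had a combined difference of 1.78 (adjusted p = 0.00969, past the threshold in 5 of 8 fits that lacked an array), with mean log2 values of 4.96 and 6.05 in shSCR cells without and with IL-13 and of 6.15 and 6.74 in shIL13RA2 cells. Whether IL1A or TP63 had a part in the CXCL17 and CXCL1 values was not tested.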

How the data were processed

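RNA of 8 MIV-Luc cultures was hybridized to 1 Affymetrix array each. The values the authors deposited are log2 expression, 1 per feature and array, made with RMA (background correction, quantile normalization and probe summary) on core exons in Affymetrix Expression Console version 1, per the labels. No further normalization was applied. The table held 33297 features. The labels name a human exon array, but that number of features is of the size of a gene-level array. Which array was used was not settled. The 4156 control features were left out. The other 29141 were tested without a filter, 7064 of them without a symbol. Columns were assigned to groups by construct and treatment.

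Group means were fitted with limma 3.58.1 in R 4.3.3 over all 8 arrays (4 residual and 3.86 prior degrees of freedom), so the groups shared 1 estimate of the spread, and p-values were adjusted by the Benjamini-Hochberg method over all tested features. A feature was called at an adjusted p under 0.05 with a fold change above 2, the limits in the study's methods, and for the interaction at the adjusted p alone. Confidence intervals cover 95%. P-values measure the spread between 2 cultures a group, and precision is limited by how few arrays there are. The fitting procedure was checked on simulated data.

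Members are described with the value on every array where they are CXCL17, passed an adjusted p under 0.05, or had an unadjusted p under 0.05 with a fold change above 1.5 in any of 8 comparisons. The 5 others with the largest mean effects were added, and CXCL3, CXCL8 and the remaining ligands were named by role. Lists of receptors, regulators, cytokines and cell type markers were written from general knowledge. The members and lists were chosen with earlier results of these data known.

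The table holds no detection call. The 95th percentile of the 2904 negative control features lay at log2 values of 9.41 to 9.74, above all but 3.89% to 5.02% of the tested features, so it did not serve as a background, and 0 of 42 ligands exceeded it on all arrays. Their median lay at 4.12 to 4.38. On each array it was above the values of CCL4, CCL4L1, CCL5, CCL7, CCL8, CCL13, CCL16 and CCL23. The same held for CXCL6, CXCL9 to CXCL14, XCL1 and XCL2. Whether these ligands were expressed is not settled. Promoter windows were matched by symbol to a RefSeq table, and the 50 bases after the start were not used. Alternatives were the methods' one-way analysis of variance with and without adjustment, limma on the 4 arrays compared, limma without adjustment, fold thresholds of 1.5 or none, leaving out the dimmest 30% of features, shifting arrays to 1 median, quantile-normalizing once more, a robust prior with an intensity trend, 1 feature per symbol, and fits that each lacked 1 array.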

Additional observations from a re-analysis of the deposited data

How the results depend on the processing

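The direction of each ligand's difference that was recomputed held under all alternatives that kept the 8 arrays, and 1 value turned when an array was left out: the CXCL17 interaction was 0.068 without array B of the IL-13-treated shIL13RA2 cells, against -0.22 with all arrays and -0.52 without array A. The 2 calls of the combined comparison became 0 with limma on the 4 arrays compared and with the adjusted analysis of variance, both of which estimate the spread from 4 arrays. The knockdown without IL-13 gave 1 called ligand instead of 0 without adjustment, with an intensity trend and robust prior, and with the unadjusted analysis of variance, and the knockdown among IL-13-treated cells gave 1 instead of 0 with the first 2 of these. That ligand was CXCL17 each time, and with the trend its adjusted p was 0.0157 without IL-13 and 0.00676 with it. The cause of the change with the prior was not tested. Leaving out 1 array gave 0 to 0 called ligands in the combined comparison, 0 to 1 for the knockdown mean effect, and 0 to 0 in the 6 other comparisons. Of the 79 counts of called ligands under other alternatives, 72 stayed within 1.5 times the count with all arrays, which was 0 in those 6 other comparisons. The CXCL17 combined difference lay between -1.52 and -1.50 with 8 arrays, a range set only by the changes of normalization. No paired analysis was possible because the column headings number the arrays from 1 to 8 whereas the labels number the replicates within a group.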
